A study of Mus musculus with 3 samples.

Results

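Carboxylesterases are serine hydrolases that split ester, amide and thioester bonds in drugs, prodrugs and lipids. Most are held in the lumen of the endoplasmic reticulum (ER) by a retrieval signal at the end of the protein, and a few are secreted. In mice the genes have multiplied into tandem arrays, and liver is a main site of their expression. The family members described here are Ces1c, Ces1d, Ces1e, Ces1f, Ces1g, Ces2a, Ces2c, Ces2e, Ces3a and Ces3b, chosen by symbol. All 10 were found among the 37620 Ensembl identifiers of the deposited tables.

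The RNA came from primary hepatocytes of C57BL/6 mice, labelled passage 1, a culture of liver parenchymal cells that loses part of its liver programme after plating. There was 1 library from cells given the solvent DMSO and there were 2 from cells given tauroursodeoxycholic acid (TUDCA), a taurine-conjugated bile acid studied as a chemical chaperone. As labelled, TUDCA was at 100 mM and acted for 24 h. The unit is given as the label has it and may be a slip for a smaller one. The DMSO label has no time, so a difference in time between the cultures cannot be told apart from TUDCA. The question, per the design text, was which genes TUDCA modulates. The medium of all cultures held serum and insulin, on gelatin-coated plates. Values are RPKM (reads scaled to gene length and to the total of the library), so levels of different genes depend on the length used for each. Between 9757547 (TUDCA replicate 1) and 10774289 (DMSO) reads stood behind a library. The design text speaks of 2 independent experiments without saying which library belongs to which, or which mice were used. The p-values rest on the spread between the 2 TUDCA libraries, shared among genes of similar level, and that spread may be technical.

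The hepatocyte markers Alb, Ttr, Apoa1, Trf, Fgb and Hnf4a summed to 10223 RPKM in DMSO and to 13304 and 11676 RPKM with TUDCA. Fgb and Hnf4a were called higher, where 1.77% of all genes tested were. Markers of other cells summed to 530.6, 594.4 and 660.8 RPKM for 8 macrophage genes and to at most 4.69 RPKM for 6 endothelial genes. The 6 stellate and fibroblast genes summed to at most 7.09 RPKM, and 5 cholangiocyte genes to between 31.7 and 49.2 RPKM, with Cftr at 0. In DMSO, Cd14 (326.4 RPKM) and Cd68 (170.4 RPKM) led the macrophage sum, with Lyz2 next at 12.9 RPKM and Ptprc lowest at 0.466 RPKM. Sox9 (20.4 RPKM) and Krt19 (10.7 RPKM) led the cholangiocyte sum there, with Krt7 and Epcam at 0.348 and 0.273 RPKM. Of the macrophage, endothelial, stellate and cholangiocyte markers, 7, 2, 4 and 2 were tested. None was called, where 2.65% of all genes tested were. Of 4 tested keratinocyte markers, 3 (Krt5, Crct1 and Lor) were called lower with TUDCA, against 0.876% of all genes tested. The sum of all 6 keratinocyte markers was 841.1 RPKM in DMSO against 158.4 and 121.7 RPKM with TUDCA, with Krt14 at 0. Most of it was Crct1, at 801.9 RPKM in DMSO against 138.2 and 101.3 RPKM with TUDCA. Krt5 stood at 29.5, 15.5 and 14.5 RPKM in the same order, and Krt10, which was not called, at 1.85, 1.64 and 1.89 RPKM. The part of these markers in the carboxylesterase values was not tested. In bulk RNA, fewer cells of a type and less RNA per cell cannot be told apart.

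In RefSeq (GRCm38.p6) the family lies on chromosome 8 in 2 arrays. In the array of Ces1a to Ces1h and Ces5a no other protein-coding gene intervenes, 68 protein-coding genes follow, and then comes the uninterrupted array of Ces2a to Ces2h, Ces3a, Ces3b and Ces4a. The deposited tables name no genome build, so no gene coordinates are tied to the values. RefSeq promoter entries matched 7 of the 10 members. Windows of the 250 bases before the start of transcription are printed for 5 of them, because Ces1g and Ces2e differed most from DMSO among the members that have an entry, Ces1c and Ces2a are abundant members of the same arrays, and Ces1e is the scarcest. The stretches in capitals were picked after reading these promoters.

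The Ces1 windows lie on the minus strand of GRCm38.p6 at chr8:93131284-93131533, chr8:93229620-93229869 and chr8:93337210-93337459, and capitals mark TTATGTAA, the letters of the D-box known from PAR-bZIP and NFIL3 factors.
Ces1c: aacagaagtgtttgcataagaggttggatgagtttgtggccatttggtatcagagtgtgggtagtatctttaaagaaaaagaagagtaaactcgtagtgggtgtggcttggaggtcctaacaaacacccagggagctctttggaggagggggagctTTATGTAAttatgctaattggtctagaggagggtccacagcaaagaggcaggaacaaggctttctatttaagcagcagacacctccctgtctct
Ces1e: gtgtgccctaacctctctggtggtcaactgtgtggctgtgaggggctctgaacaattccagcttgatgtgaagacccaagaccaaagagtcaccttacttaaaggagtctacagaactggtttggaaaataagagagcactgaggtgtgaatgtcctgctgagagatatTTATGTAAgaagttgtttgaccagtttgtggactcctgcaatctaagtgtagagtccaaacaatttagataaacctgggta
Ces1g: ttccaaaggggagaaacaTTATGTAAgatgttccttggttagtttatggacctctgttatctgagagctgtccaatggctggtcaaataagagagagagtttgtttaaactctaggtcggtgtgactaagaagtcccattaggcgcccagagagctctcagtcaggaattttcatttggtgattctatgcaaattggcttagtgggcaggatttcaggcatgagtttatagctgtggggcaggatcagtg

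The Ces2 windows lie on the plus strand at chr8:104733753-104734002 and chr8:104926010-104926259, and capitals mark AACTTTGCCCC, the longest run that Ces2e shares with the promoter of its neighbour Ces2f.
Ces2a: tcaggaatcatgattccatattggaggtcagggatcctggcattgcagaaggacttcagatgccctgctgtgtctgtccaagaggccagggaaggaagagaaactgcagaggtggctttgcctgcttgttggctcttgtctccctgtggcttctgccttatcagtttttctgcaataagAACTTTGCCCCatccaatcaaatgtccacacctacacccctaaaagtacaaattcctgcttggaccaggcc
Ces2e: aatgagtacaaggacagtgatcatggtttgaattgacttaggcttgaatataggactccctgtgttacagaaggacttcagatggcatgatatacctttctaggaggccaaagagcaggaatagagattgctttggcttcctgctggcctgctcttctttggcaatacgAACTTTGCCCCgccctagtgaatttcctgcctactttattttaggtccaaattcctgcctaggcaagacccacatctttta

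TTATGTAA stood in the windows of all 3 Ces1 members with an entry, from base -94 in Ces1c, -81 in Ces1e and -232 in Ces1g, counted from the start. Over both strands it occurs in 0.819% of the 32851 promoter entries of the same length, and in this family also in Ces1a and Ces1b. AACTTTGCCCC began at base -71 in Ces2a and -81 in Ces2e and occurs in 0.0183% of all entries. AGGTCA, the core letters that nuclear receptors recognise, was found in 1 of the 7 member windows, Ces2a, against 14.0% of all entries. The letters TATAAA were found in 2, Ces1g and Ces3b, against 12.4%. These matches describe letters, not bound sites. Ces1c also shared an unbroken run of 58 bases with its array neighbour Ces1b, and their 250 bases were 76.2% identical. Ces1c stood at 211 RPKM in DMSO and Ces1b at 3.16 RPKM.

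The levels of the members were spread over about 2 orders of magnitude. Ces1c, an esterase secreted into mouse plasma, led with 211 RPKM in DMSO and 254 and 230.3 RPKM in TUDCA replicates 1 and 2. Ces3a, a liver carboxylesterase, followed at 129 RPKM in DMSO and at 134 RPKM in both TUDCA libraries. Ces2a, of the subfamily known for drug esters with a bulky alcohol part, stood at 69.0 RPKM in DMSO against 72.0 and 80.5 RPKM with TUDCA. These 3 genes kept places 1 to 3 in every library, and the values of neighbours in that order did not overlap. Ces3b came next with 50.5 RPKM in DMSO against 48.3 and 52.3 RPKM with TUDCA, also clear of its neighbours.

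Below them the order was less settled. Ces2c, a hydrolase of acylglycerols and of drugs, stood at 30.1 RPKM in DMSO, above Ces2e at 21.2 RPKM, whereas in both TUDCA libraries Ces2e was the higher of the pair. Ces1f, Ces1g and Ces1d lay between 4.09 and 9.67 RPKM over all libraries and overlapped. They stood in that order in DMSO and in TUDCA replicate 2, and Ces1d came before the other two in TUDCA replicate 1. Ces1e came last everywhere, at 1.97 RPKM in DMSO against 2.30 and 2.85 RPKM with TUDCA. It encodes egasyn, which holds beta-glucuronidase in the ER. Among the 11300 genes tested, Ces1c ranked 567th in DMSO and Ces1e 10069th.

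Part of this order depends on the gene length that the deposited values were divided by. That length, recovered from the values, was within 1 nt of the mean length of the gene's GENCODE M21 transcripts for Ces1c, Ces1d, Ces1e, Ces1f and Ces1g. Over 14004 genes with several transcripts, it was within 1 nt of that mean in 29.0% and of the longest transcript in 2.63%. Short transcripts shrink the divisor and raise the RPKM. Ces1f was divided by 743 nt although its longest transcript has 1926 nt, and Ces1d by 839 of 2004 nt. For the Ces2 and Ces3 members the recovered length is the smallest that gives whole reads, and a multiple was not excluded. For Ces2c it was 915 nt, against a mean of 1339 nt and a longest transcript of 1970 nt. Ces1g, with 1 transcript, was divided by its full 2388 nt. Rescaled to the longest transcript, an alternative chosen after seeing the data, Ces2e was above Ces2c in DMSO too, at 18.5 against 14.0 RPKM. That takes 915 nt as the length behind Ces2c, and a multiple of it would raise the rescaled value and could reverse the order. Ces1g then came before Ces1f and Ces1d in all 3 libraries, with 4.16 RPKM in DMSO against 3.47 RPKM for Ces1f and 1.71 RPKM for Ces1d. Ces2e also passed Ces3b in TUDCA replicate 1, at 33.1 against 31.2 RPKM. Ces1c, Ces3a and Ces2a kept their places, and Ces1e stayed last. Ratios of RPKM between libraries for 1 gene do not depend on this length. The log2(RPKM + 1) differences tested below do, as does the filter by level, and they were not recomputed per longest transcript.

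**Figure D1:**
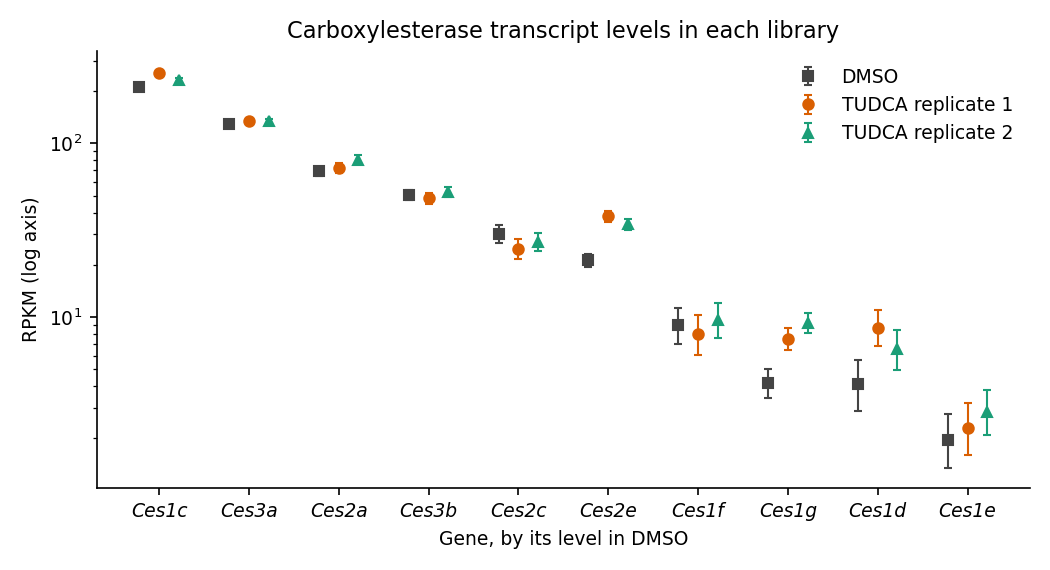
RPKM of each carboxylesterase (log axis) in the DMSO library (squares) and TUDCA replicates 1 (circles) and 2 (triangles), with exact 95% Poisson intervals that cover counting error only. Ces1c is highest and Ces1e lowest in every library, and the DMSO interval lies below both TUDCA intervals for Ces1c, Ces1g and Ces2e. The share of all genes whose counting intervals part in this way was not computed.

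In sum the members reached 530.5 RPKM in DMSO, 596.9 RPKM in TUDCA replicate 1 and 586.8 RPKM in TUDCA replicate 2. Both TUDCA sums were above DMSO, at 1.13 and 1.11 times its value. The median of all genes tested also lay above DMSO, by 0.10 and 0.04 on the log2(RPKM + 1) scale. These sums and the shares below depend on the gene lengths described above. Ces1c gave 39.9% of the DMSO sum and 42.5% and 39.2% of the TUDCA sums, and Ces3a 24.3%, 22.4% and 22.8%. The 5 Ces1 members summed to 1.21 and 1.12 times DMSO, the 3 Ces2 members to 1.12 and 1.18 times, and Ces3a with Ces3b to 1.02 and 1.04 times. Each of these sums is led by its most abundant genes. Ces1g, with the largest ratio to DMSO (2.02 for the TUDCA mean), made up 0.784% of the DMSO sum and 1.26% and 1.58% of the TUDCA sums.

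**Figure D2:**
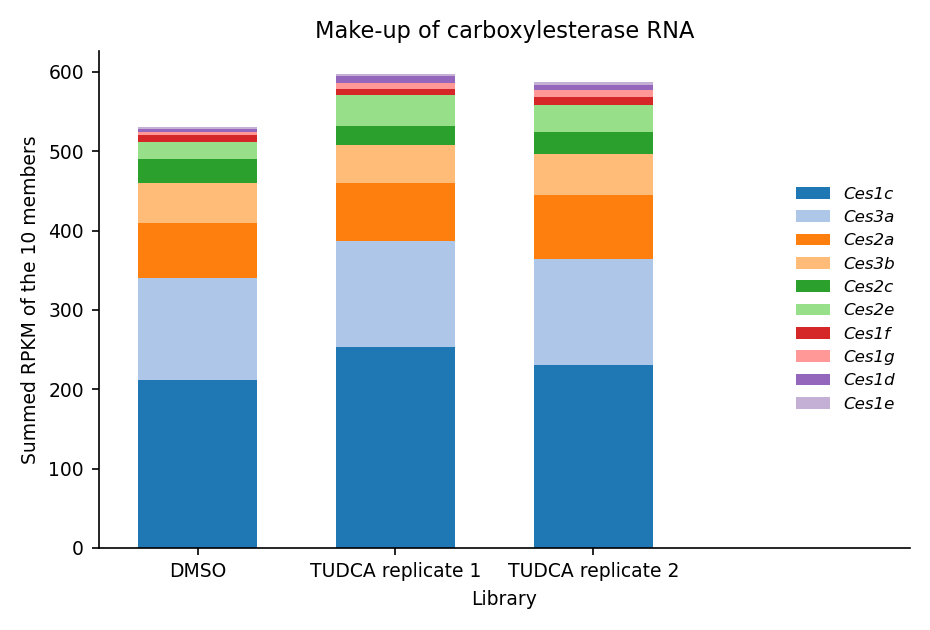
Summed RPKM of the 10 carboxylesterases in each of the 3 libraries, stacked by gene. The bars reach 530.5, 596.9 and 586.8 RPKM, and Ces1c and Ces3a make up most of each.

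TUDCA was compared with DMSO by limma on log2(RPKM + 1) over the 11300 genes whose mean level reached 1 RPKM, a filter that all 10 members passed. No member passed the Benjamini-Hochberg threshold of 0.05, where 2.65% of all genes tested did (1.77% higher and 0.876% lower with TUDCA). At an unadjusted limma p under 0.05 there were 3 members, all higher with TUDCA, against 10.8% of all genes in either direction and 6.58% higher. voom on the recovered reads called none of the 10 either, against 2.36% of all genes, and again 3 had an unadjusted p under 0.05. The median log2 fold change of the members was 0.17, against 0.04 over all genes tested, and the members ranged from -0.21 to 0.86. By a rule of size without a test, under which each TUDCA library had to lie 1 or more log2 units to the same side of DMSO, no member passed, against 1.05% of all genes.

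Both TUDCA libraries were above DMSO for 7 members, below it for Ces2c, and on either side of it for Ces1f and Ces3b. Over all genes tested, 40.5% were above DMSO in both and 30.4% below. The median of all genes lay 0.10 above DMSO in TUDCA replicate 1 and 0.04 above it in TUDCA replicate 2 on the log2 scale. Relative to those medians 5 members (Ces1c, Ces1d, Ces1e, Ces1g and Ces2e) were above DMSO in both libraries and Ces2c below, against 31.3% and 39.7% of all genes. For 5 members both TUDCA libraries were on the same side of DMSO and farther from it than from each other, against 36.3% of all genes. Of these, Ces1d, Ces1g, Ces2e and Ces3a were higher with TUDCA, against 20.7% of all genes, and Ces2c was lower.

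**Figure D3:**
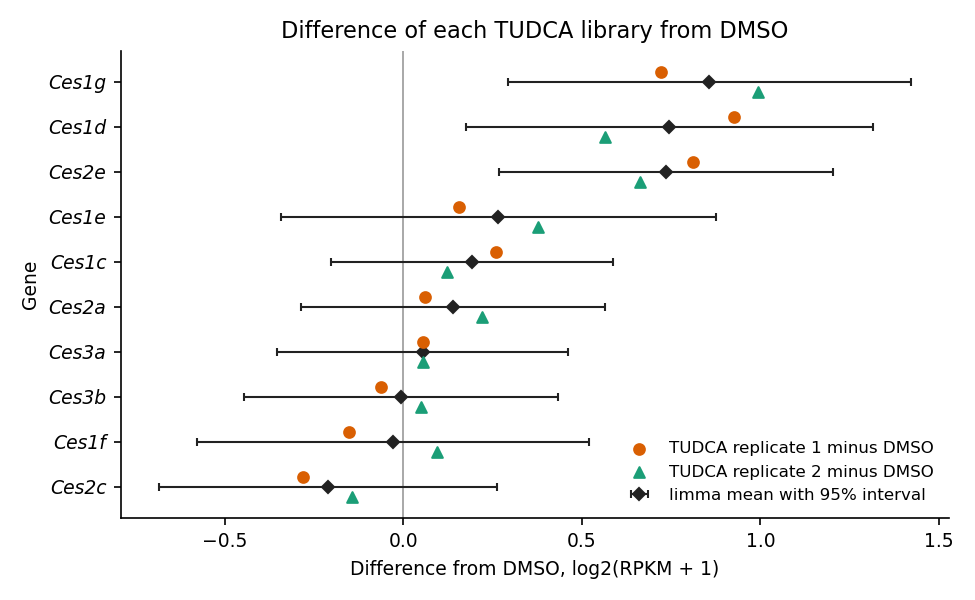
Difference from DMSO on the log2(RPKM + 1) scale for TUDCA replicate 1 (circles) and replicate 2 (triangles), and the limma mean (diamonds) with its unadjusted 95% interval. The intervals of Ces1g, Ces1d and Ces2e lie above 0 and those of the other 7 members include 0; no member passed after adjustment over all genes.

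Ces1g encodes an ER carboxylesterase whose loss in mice is known to raise lipid synthesis in the liver and lipids in blood. It stood at 4.16 RPKM in DMSO, 7.51 RPKM in TUDCA replicate 1 and 9.27 RPKM in TUDCA replicate 2. Both TUDCA values were above DMSO, with at least 107 reads behind each library's value. The exact 95% Poisson interval of the DMSO value, 3.41 to 5.03 RPKM, lay below those of the TUDCA values, 6.44 to 8.71 and 8.12 to 10.5 RPKM. The log2 fold change was 0.86 ± 0.29 (SE) and was not called (limma adjusted p = 0.0914, 0.0635 to 0.574 over 8 alternatives). At this SE a log2 fold change of 0.93 would have been called. The difference of TUDCA replicate 2 alone was 0.99 on the log2(RPKM + 1) scale, just under the rule of size. In plain RPKM that library stood at 2.23 times DMSO.

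Ces2e, an array neighbour of Ces2c, stood at 21.2 RPKM in DMSO and 38.0 and 34.2 RPKM in TUDCA replicates 1 and 2. The TUDCA libraries lay close together, 0.15 apart on the log2 scale, and both were well above DMSO, by 0.81 and 0.66. At 538, 872 and 850 reads, the Poisson interval of DMSO (19.5 to 23.1 RPKM) did not reach those of TUDCA (35.5 to 40.6 and 31.9 to 36.5 RPKM). The fitted log2 fold change of 0.74 ± 0.24 (SE) was not called (limma adjusted p = 0.0668, 0.0629 to 0.547 over 8 alternatives). A value of 0.77 would have been called at this SE.

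Ces1d encodes the triacylglycerol hydrolase of hepatocytes, which supplies lipid for very-low-density lipoprotein. It stood at 4.09 RPKM in DMSO against 8.67 and 6.54 RPKM with TUDCA. Both TUDCA values were higher, but the TUDCA libraries were 0.36 apart on the log2 scale, the widest gap among the members. With 37 reads in DMSO, its Poisson interval of 2.88 to 5.64 RPKM overlapped that of TUDCA replicate 2 (4.96 to 8.45 RPKM). The log2 fold change was 0.75 ± 0.29 (SE, limma adjusted p = 0.194, 0.166 to 0.605 over 8 alternatives).

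Ces1f, a second lipid hydrolase of the Ces1 array, showed no common direction, with 8.99 RPKM in DMSO, 8.00 RPKM in TUDCA replicate 1 and 9.67 RPKM in TUDCA replicate 2. Its log2 fold change was -0.03 ± 0.28 (SE, limma adjusted p = 0.995). The 95% interval of its log2 fold change, -0.58 to 0.52, allows a change in either direction. Ces1e had a log2 fold change of 0.27 ± 0.31 (limma adjusted p = 0.884) on 33, 35 and 47 reads, and its interval of -0.34 to 0.88 was the widest of the 10. Its partner in the ER, beta-glucuronidase (Gusb), stood at 69.1 RPKM in DMSO against 63.9 and 77.2 RPKM with TUDCA and was not called either (limma adjusted p = 0.995).

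The fit gave the abundant members narrower intervals because it assumed a smaller SD at higher levels, whatever a gene's own spread. Without the trend the SE was 0.276 for Ces1c and Ces1e alike. For Ces1c, with 3014 to 3273 reads a library, the log2 fold change was 0.19 ± 0.20 (limma adjusted p = 0.864), with an interval from -0.20 to 0.59. By counting error alone its DMSO interval, 204 to 219 RPKM, lay below those of TUDCA replicate 1 (245 to 262 RPKM) and replicate 2 (222 to 238 RPKM). In Ces3a the TUDCA libraries were 0.001 apart on the log2 scale and both 0.05 above DMSO, and the interval of its fold change ran from -0.35 to 0.46. Ces3b had a log2 fold change of -0.01 ± 0.22, with an interval from -0.45 to 0.43. Ces2a had 0.14 ± 0.22, from -0.29 to 0.57. Under the assumed SD, a 2-fold change on the RPKM + 1 scale is outside the intervals of these 4 genes. Ces2c was the lone member below DMSO in both TUDCA libraries, at 24.6 and 27.2 RPKM, with a log2 fold change of -0.21 ± 0.24 (limma adjusted p = 0.880).

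**Figure D4:**
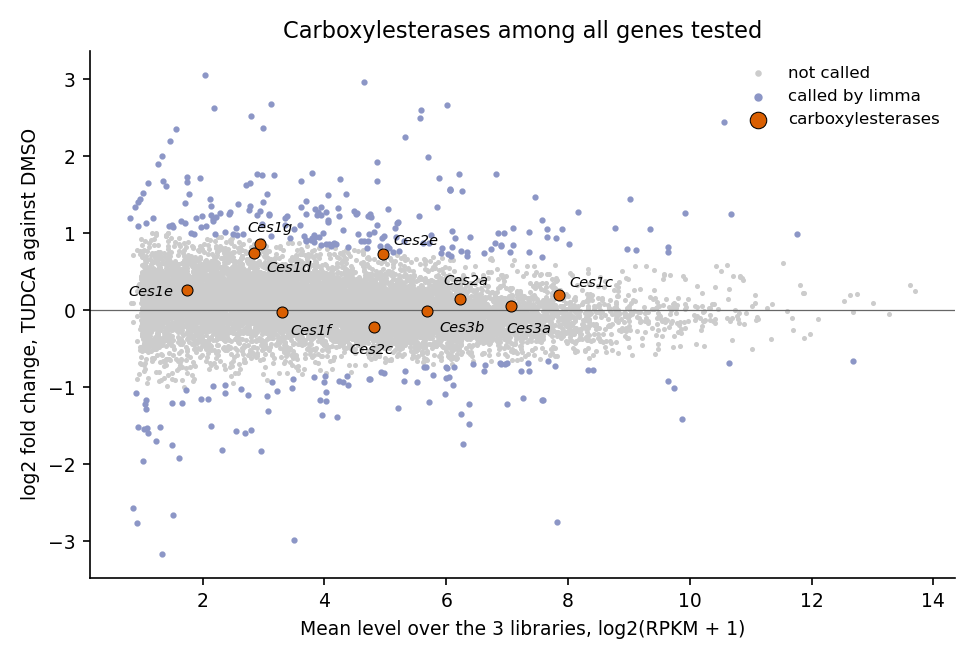
Log2 fold change of TUDCA against DMSO over the mean level of each of the 11300 genes tested, both on the log2(RPKM + 1) scale. Grey genes were not called, blue genes passed the limma threshold, and the 10 carboxylesterases (orange) lie among genes that were not called, with Ces1g and Ces2e near the lower edge of the genes called higher.

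The members resemble each other in sequence, which can bear on how reads were split between them. In GENCODE M21 coding sequences, identity was 72.6 to 95.3% (median 78.2%) for the 14 pairs within a subfamily and 54.7 to 60.3% for the 31 pairs across subfamilies. Ces3a and Ces3b were the closest pair, and Ces2c was 91.3% identical to Ces2b, which lies outside the 10. Of the 50-base windows of the Ces2c transcript, 42.2% also occur in transcripts of another gene, mostly the pseudogene Ces2d-ps. The share was 30.9% for Ces3a, 26.1% for Ces3b, 22.2% for Ces2a and 17.0% for Ces1c. It was 1.28% for Ces1d, 1.67% for Ces1g and 3.36% for Ces2e, the members that differed most from DMSO, and 1.60% and 3.21% for Ces1f and Ces1e. The sources used here do not say how reads matching several genes were treated, so levels of the first 5 are the less certain ones.

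**Figure D5:**
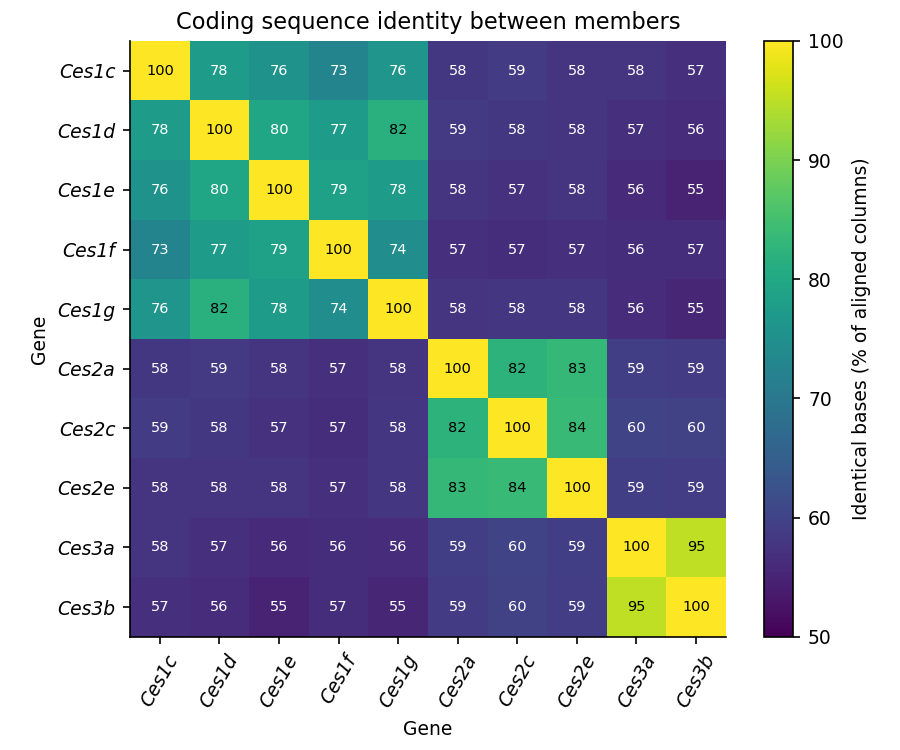
Identity of coding sequence, in percent of aligned columns, for each pair of carboxylesterases. Blocks above 72% mark the Ces1, Ces2 and Ces3 subfamilies, with Ces3a and Ces3b the closest pair at 95.3%.

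The other 10 family genes of the arrays were mostly near the detection limit. Ces2g stood at 11.5 RPKM in DMSO, 15.7 RPKM in TUDCA replicate 1 and 16.2 RPKM in replicate 2 (log2 fold change 0.44 ± 0.26, limma adjusted p = 0.611), and Ces1b at 3.16, 3.55 and 4.28 RPKM (limma adjusted p = 0.897). These 2 were the ones that passed the filter, and neither was called. Ces1h missed the filter with 17 reads in DMSO and 9 and 5 with TUDCA. Ces4a had 6, 7 and 11 reads, Ces1a, Ces2b, Ces2f and Ces2h had at most 5 in any library, and Ces2d-ps and Ces5a were listed at 0 throughout. For a gene of 1 kb without reads, 3 reads set an upper limit of 0.278 RPKM in DMSO.

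Of 26 tested genes for other ester, amide and lipid hydrolases, 2 were called higher and none lower, with 24 not called (median log2 fold change 0.21), where 1.77% of all genes tested were called higher and 0.876% lower. Bphl, a hydrolase that activates amino acid ester prodrugs, rose from 15.9 RPKM in DMSO to 35.1 and 30.2 RPKM (log2 fold change 0.99 ± 0.24, limma adjusted p = 0.00331). Pon3, a lactonase of the paraoxonase family, rose from 19.6 RPKM in DMSO to 37.3 RPKM in TUDCA replicate 1 and 34.2 RPKM in replicate 2 (log2 fold change 0.83 ± 0.24, limma adjusted p = 0.0248). That call was lost in 5 of 8 alternatives, with adjusted p between 0.0719 and 0.509. Leaving out the filter also ended the call of Bphl (adjusted p = 0.530). The kynurenine formamidase gene Afmid had 2.28 RPKM in DMSO, 5.04 RPKM in TUDCA replicate 1 and 3.69 RPKM in replicate 2, and was not called (limma adjusted p = 0.305). The fatty acid amide hydrolase gene Faah had 18.7, 24.9 and 33.3 RPKM in the same order (limma adjusted p = 0.247).

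Carboxylesterases such as Ces1d feed lipoprotein assembly, and of 11 tested genes for that step none was called, against 2.65% of all genes tested (median log2 fold change 0.21). Apob, the structural protein of the particle, had 101.4 RPKM in DMSO against 204.4 and 115.2 RPKM with TUDCA, Cideb 16.1, 20.3 and 24.5 RPKM, Surf4, a cargo receptor, 533.9, 395.5 and 406.1 RPKM, and Pla2g12b 26.4, 33.6 and 35.3 RPKM. Their limma adjusted p-values were 0.113, 0.561, 0.399 and 0.649. A further list held 8 genes: Gusb, Kdelr1, Kdelr2, Kdelr3, P4hb, Serpina1a, Serpina1b and Serpina1e. None of them was called, against the same 2.65%. The KDEL receptor genes, whose products return escaped ER proteins, were lower in both TUDCA libraries without passing the test, with Kdelr2 at 86.8, 59.3 and 54.3 RPKM (limma adjusted p = 0.141), Kdelr3 at a log2 fold change of -0.47 (0.594) and Kdelr1 at 223, 196.6 and 187.9 RPKM (0.834). The disulphide isomerase P4hb had 1065, 880.2 and 857.7 RPKM (0.670).

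Of 14 tested transcriptional regulators of drug and lipid metabolism, 5 were called higher, none lower and 9 not called (median log2 fold change 0.40), against 1.77% higher and 0.876% lower over all genes tested. This list was chosen with earlier results of these data known, so the shares are not an independent comparison. The 5 were Nr0b2, which encodes the corepressor SHP (1.15, 5.43 and 22.8 RPKM in DMSO and TUDCA replicates 1 and 2, log2 fold change 2.53), Nr1i2, which encodes the xenobiotic receptor PXR (1.79), Nr1h4, which encodes the bile acid receptor FXR (1.11), Nfe2l2, which encodes NRF2 (0.84), and the hepatocyte factor Hnf4a (0.76). Leaving out the filter ended all 5 calls (adjusted p from 0.502 to 0.640). Median centring and limma without the trend ended the calls of Hnf4a (adjusted p = 0.153 and 0.160) and Nfe2l2 (0.0773 and 0.0866), and robust estimation ended that of Nr0b2 (0.855). PXR is known to induce Ces2a in mouse liver. Nr1i2 stood at 5.09 RPKM in DMSO against 16.3 and 24.6 RPKM with TUDCA, and Ces2a, with the levels given above, was not called (limma adjusted p = 0.926). The part of PXR in the carboxylesterase values was not tested.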

How the data were processed

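Polyadenylated RNA of primary mouse hepatocytes was sequenced in 1 DMSO and 2 TUDCA libraries. The authors deposited RPKM values for 37620 genes a library. The submitters' processing notes list TopHat2 2.0.7, Bowtie2, CASAVA and HTSeq, with no role for any. For genome build, annotation, read length and strand setting, nothing is given in the sources used. Without strand, reads of overlapping antisense genes cannot be told apart.

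Symbols came from GENCODE M21 by identifier (32897 matched). Library totals and the smallest whole reads per gene were recovered from the RPKM values for all 19146 genes above 0, within a relative tolerance of 1e-09. They add up to 95.7 to 95.8% of the totals. For Ces1c to Ces1g the implied length is the mean transcript length of GENCODE M21, so no multiple of these reads is needed there. For Ces2a, Ces2c, Ces2e, Ces3a and Ces3b a multiple was not excluded, which would narrow their Poisson intervals and raise their levels per longest transcript. Intervals cover counting error only.

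Values were tested as log2(RPKM + 1), which understates fold changes of low genes, for genes whose mean reached 1 RPKM, with limma 3.58.1 in R 4.3.3 (lmFit, eBayes with trend, Benjamini-Hochberg adjustment over 11300 genes, threshold 0.05). The single residual degree of freedom lies between the TUDCA libraries, and their spread stands in for that of the single DMSO library. The prior degrees of freedom came out infinite, so genes of a given level share 1 SD (0.159 to 0.265). The alternatives were quantile normalization, median centring, no trend, robust estimation, voom on recovered reads, a pseudocount of 0.1, filters at 0 and 5 RPKM, a rule of size, and leaving out each TUDCA library.

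Promoters are RefSeq's (GRCm38.p6). Transcript windows were searched on both strands of all GENCODE M21 transcripts, and coding sequences were aligned end to end. Named genes are all members, all other family genes, and in each further list the called genes and up to 4 with the largest fold changes. The list with the KDEL receptor genes is named in full. Members and lists were chosen with earlier results of these data known.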

Additional observations from a re-analysis of the deposited data

How the results depend on the processing

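No member was called under any of the 8 alternatives with a test (79 values, lowest adjusted p 0.0629). At an unadjusted p under 0.05 there were 3 members under 7 of these alternatives and 1 without the filter. The count of all genes called, 299, was 0 without the filter (1696 at an unadjusted p under 0.05) and 119 by the rule of size. No member passed that rule, set on log2(RPKM + 1), with either TUDCA library left out. In plain RPKM, Ces1g stood at 2.23 times DMSO in TUDCA replicate 2 and Ces1d at 2.12 times in replicate 1. With 1 library against 1, limma gives no test. Of 99 alternative log2 fold changes of members, 95 kept their sign. The others were Ces1f (0.09) and Ces3b (0.05) without TUDCA replicate 1, Ces3b (0.01) with quantile normalization and Ces3a (-0.02) with median centring. The log2 fold change of Ces1g was 0.99 without TUDCA replicate 1 and 0.72 without replicate 2, that of Ces1d 0.57 and 0.93, and that of Ces2e 0.66 and 0.81. No paired analysis was possible because DMSO is a single library. Per longest transcript, an alternative chosen after seeing the data, the DMSO level was 153 RPKM for Ces1c, 44.6 for Ces2a, 32.6 for Ces3b, 18.5 for Ces2e, 14.0 for Ces2c, 3.47 for Ces1f and 1.71 for Ces1d, with Ces1e, Ces1g and Ces3a within their counting intervals. For the Ces2 and Ces3 members these values assume the smallest recovered length. Depth limits Ces1d, Ces1e and Ces1f, with 33 to 76 recovered reads a library.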
